A study of Mus musculus with 12 samples.

Results

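The Trim genes encode tripartite motif proteins, most of which are E3 ubiquitin ligases, and they were followed in mouse macrophages during lipopolysaccharide (LPS) tolerance. Members were the genes whose array symbol is Trim followed by a digit, each represented by its single-symbol probe set with the highest mean over all arrays. This gave 58 Trim genes of 18193 genes measured. All cells were bone marrow cells of C57Bl/6 mice grown in macrophage colony-stimulating factor (M-CSF), and LPS, a cell wall component of Gram-negative bacteria sensed by Toll-like receptor 4 (Tlr4), was used at 100 ng/ml. Restimulated cells received LPS for 18 h, new medium, 2 h of rest and LPS again. Pretreated cells received LPS for 18 h and no LPS after the rest, cells given LPS once received it only after the rest, and untreated cells received none. Each group had 3 arrays, lettered A, B and C and called biological replicates in the labels, which name no animals. The sources used here do not give the time between the last LPS addition and lysis, nor a genotype other than the C57Bl/6 strain.

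Tripartite motif proteins carry a RING domain, 1 or more B-boxes and a coiled coil, followed by a C-terminal domain that differs between subgroups. The RING domain passes ubiquitin to target proteins, and several members add ubiquitin chains to parts of the RNA-sensing and Toll-like receptor pathways in macrophages. Many members with a C-terminal SPRY domain are induced by type I interferon, which macrophages secrete after Tlr4 is engaged. Others act in transcriptional repression, on microtubules, or in muscle and nerve cells.

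Of the 58 Trim genes, 32 had a mean intensity above 100 in at least 1 group (55.2%, against 49.1% of all genes). Intensities of different probe sets do not rank RNA amounts, so each gene is set only against itself across groups. The 32 genes were Trim30a, Trim25, Trim30d, Trim35, Trim21, Trim28, Trim27, Trim13, Trim41, Trim14, Trim34a, Trim26, Trim44, Trim36, Trim8, Trim33, Trim12c, Trim47, Trim3, Trim56, Trim12a, Trim11, Trim24, Trim23, Trim37, Trim39, Trim5, Trim32, Trim16, Trim65, Trim59 and Trim62. Trim30a was the brightest, with a mean of 3225 in cells given LPS once, and Trim62 lay just above the limit at 114.9. The 26 genes that stayed at or below 100 were Trim46, Trim45, Trim60, Trim68, Trim17, Trim40, Trim10, Trim61, Trim29, Trim9, Trim80, Trim2, Trim71, Trim43a, Trim54, Trim6, Trim7, Trim72, Trim31, Trim69, Trim75, Trim67, Trim42, Trim15, Trim66 and Trim63. Their highest group means ran between 11.77 for Trim63, a muscle ligase, and 70.35 for Trim46, a microtubule-linked member of neurons, and the medians of all probe sets on the arrays lay between 29.7 and 31.7. Among them the 3 measured ligases of striated muscle (Trim54, Trim63 and Trim72), Trim71 of embryonic stem cells and Trim66 of the testis had no group mean above 100. None of the 26 passed the test used for calling a change, and their log2 changes after a first LPS dose lay between -0.60 and 0.35.

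The macrophage label held in the markers, since 8 of 8 macrophage genes, Csf1r and Adgre1 among them, had group means above 100, with summed intensities of 56580 to 65190 in restimulated, 61550 to 63640 in pretreated, 55480 to 57140 in LPS-once and 58540 to 59680 in untreated cells. All measured markers of T cells, B cells, NK cells, dendritic cells, erythroid cells and mast cells were below 100. Fibroblast collagens were brighter on the A and B arrays of every group than on the C arrays (Col1a1 507 to 1991 against 37.8 to 42.3, Col1a2 1399 to 4520.1 against 54.3 to 127), and neutrophil precursor markers reached sums of 1475 on an LPS-once array and 1134 on an untreated array. Every group held 1 array of each letter, and the part of these cells in the Trim results was not tested. The restimulated C array stood apart: over 6228 genes of middle intensity it had a median log2 difference of -0.52 from the other restimulated arrays, with 91.6% of genes lower, while the other 11 arrays lay between -0.06 and 0.09 of the other arrays of their groups (restimulated A and B were set against each other alone). Of the 32 Trim genes above 100, 28 were lower on that array, with a median of -0.67. Several counts, medians and values on restimulated cells are therefore also given without it, and the others include it. In bulk RNA, fewer cells of a type and less RNA per cell cannot be told apart.

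The first LPS response compared cells given LPS once with untreated cells. In it 5 of 58 Trim genes were called higher (8.62%, against 3.9% of all genes) and 5 were called lower (8.62%, against 9.1% of all genes). Called here means that limma, a linear model with moderated errors, gave a p under 0.05 after Benjamini-Hochberg adjustment over the 18193 genes, with at least a 2-fold change of log2(intensity + 16), a scale that understates the changes of dim genes. Trim13, Trim36, Trim30d, Trim21 and Trim30a were higher, and Trim47, Trim65, Trim24, Trim41 and Trim8 were lower. A further 14 genes had an adjusted p under 0.05 with a change under 2-fold, 6 of them higher and 8 lower. Of these, Trim17, Trim40, Trim29 and Trim9 on the higher side and Trim68 on the lower had no group mean above 100. The share of all genes with such a p and change was not counted, so these 14 are given without a comparison. At an unadjusted p under 0.05 there were 15 higher (19.5% of all genes were) and 14 lower (23.9% of all genes were). The median log2 change was 0.09 over the 58 Trim genes, against 0.04 over all genes, and -0.30 over the 32 above 100, against -0.28 over the 8935 genes above 100. After quantile normalization, which sets all arrays to the same distribution, the last 2 medians were -0.09 and -0.10. The LPS-once and untreated arrays did not overlap for 23 Trim genes that were higher (29.6% of all genes were) and for 15 that were lower (27% of all genes were). Of these, 11 of the higher and 14 of the lower genes were among the 32 above 100.

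**Figure D1:**
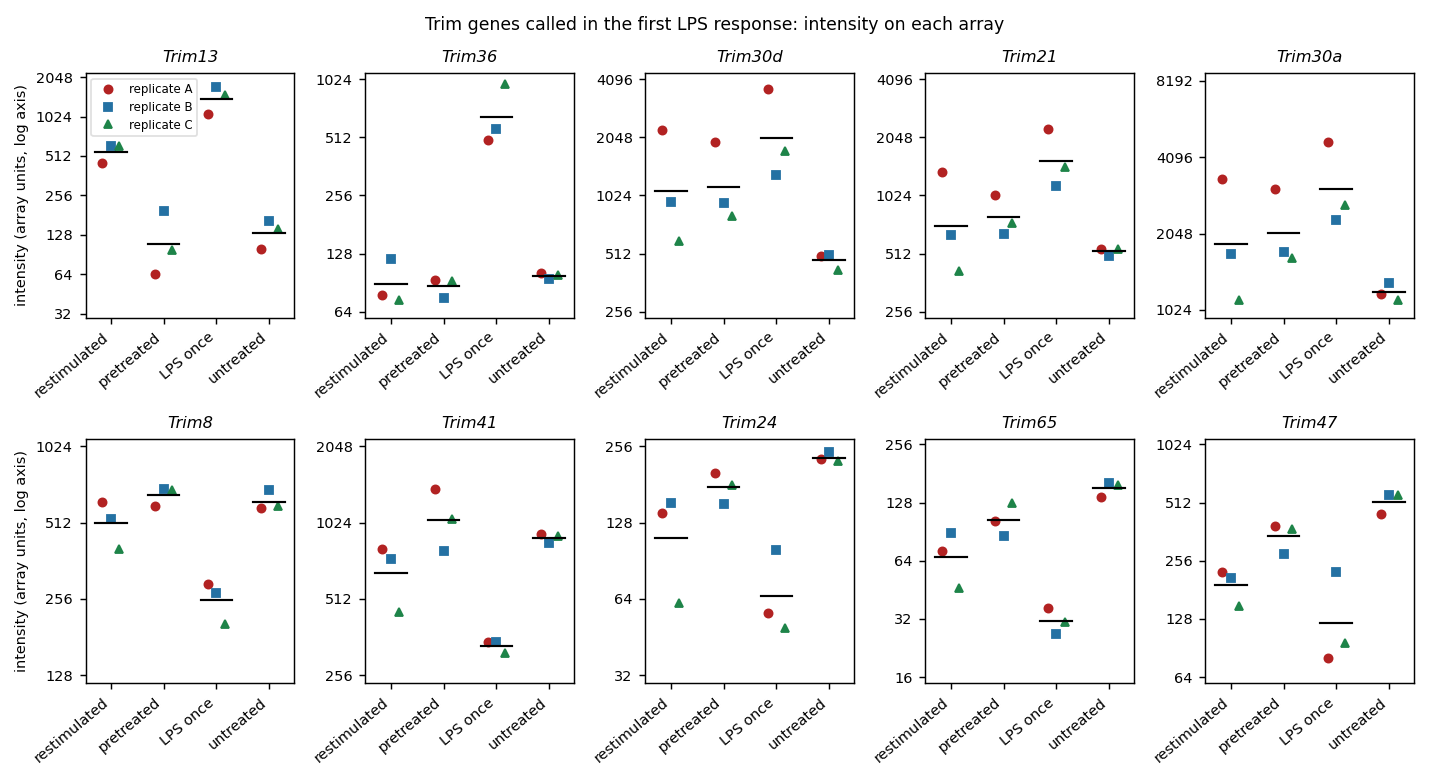
Intensity (log axis) on each of the 12 arrays for the 10 Trim genes called in the first LPS response, with the group on the x axis, points marked by replicate letter and a bar at the mean of the log2(intensity + 16) values, turned back to intensity. The 5 genes of the top row were higher with LPS once than untreated and the 5 of the bottom row were lower, and in the restimulated group Trim36 stayed at 73.62 to 120.29 while Trim13 was at 450.0 to 613.8.

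Trim13 is anchored in the membrane of the endoplasmic reticulum, where it takes part in the degradation of proteins, and human TRIM13 has been linked to NF-kappaB signalling. Trim13 had intensities of 450.0, 612 and 614 in restimulated cells, 63.9, 194 and 97.4 in pretreated cells, 1072, 1718 and 1504 in LPS-once cells and 99.2, 164 and 141 in untreated cells (arrays A, B and C in this order here and below). All LPS-once arrays were above all restimulated arrays, which were above every pretreated and untreated array, and the last 2 groups overlapped. The log2 change in the first response was 3.26 ± 0.33 (SE, n = 3 arrays a group; adjusted p = 8.94e-05).

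Trim36 belongs to the microtubule-linked members and is best known from the acrosome of sperm. Its intensities were 78.1, 120 and 73.6 in restimulated cells, 93.4, 75.3 and 91.9 in pretreated cells, 498, 565 and 967 in LPS-once cells and 102, 94.9 and 98.7 in untreated cells. Only the LPS-once arrays were high, while the other 3 groups lay in 1 narrow range. The first response was 2.54 ± 0.23 on the log2 scale (adjusted p = 5.14e-05). The gene's other probe set gave 2.77 ± 0.17 (adjusted p = 1.5e-05 over 45037 probe sets). Of the other measured microtubule-linked members with a Trim symbol, Trim9, Trim46 and Trim67, none was called in any comparison and none had a group mean above 100.

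Among the interferon-linked members, 3 of 12 measured genes were called higher in the first response (3.9% of all genes were) and none lower (9.1% of all genes were), with a median log2 change of 0.49, against 0.04 over all genes. Trim30a, a mouse SPRY member known to dampen Toll-like receptor signalling by removing Tab2 and Tab3, had 3370, 1696 and 1124 in restimulated cells, 3074, 1735 and 1643 in pretreated cells, 4697, 2325 and 2651 in LPS-once cells and 1182, 1313 and 1124 in untreated cells. Every LPS-once array was above every untreated array, and the restimulated and pretreated arrays overlapped. The change was 1.34 ± 0.40 (adjusted p = 0.0287), and the call was lost without the A or C array of LPS-once cells or without any 1 untreated array, with adjusted p-values of up to 0.0936.

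Trim30d is a paralog of Trim30a next to it on chromosome 7. Its intensities were 2241, 943 and 595 in restimulated cells, 1939, 938 and 804 in pretreated cells, 3648, 1302 and 1740 in LPS-once cells and 497, 506 and 423 in untreated cells. The untreated arrays were the lowest 3 of all 12, and the first response was 2.06 ± 0.52 (adjusted p = 0.013). Probe sets of close paralogs can bind the RNA of both, and a probe set assigned to both Trim30d and Trim30a changed the same way, by 1.70.

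Trim21 is a cytosolic receptor for antibody-coated viruses that also adds ubiquitin to interferon regulatory factors. It had 1355, 643 and 416 in restimulated cells, 1032, 646 and 733 in pretreated cells, 2247, 1152 and 1439 in LPS-once cells and 542, 496 and 541 in untreated cells. All LPS-once arrays were above all arrays of the other groups, except that restimulated A lay above LPS-once B, and the untreated arrays lay close together. The first response was 1.53 ± 0.39 (adjusted p = 0.0127), and a further probe set gave 1.61 ± 0.45.

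The other interferon-linked members above 100 were not called in the first response. Trim26, which acts on nuclear Irf3, had a log2 change of 0.64 ± 0.21 (adjusted p = 0.042, under 2-fold). Trim34a had 0.84 ± 0.46 (adjusted p = 0.194), and Trim12a, a mouse relative of the primate retrovirus restriction factor TRIM5alpha, had 0.81 ± 0.33 (adjusted p = 0.0868) and was called after quantile normalization (1.12, adjusted p = 0.0072). The related Trim12c and Trim5 had 0.23 ± 0.26 and -0.21 ± 0.23, and Trim56, linked to nucleic acid sensing, had 0.33 ± 0.13. Trim14, which lacks a RING domain and binds Mavs, had -0.46 ± 0.66, with LPS-once arrays spread between 184 and 1195.

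Trim25, which adds ubiquitin chains to the RNA sensor RIG-I (Ddx58), gave readings that depended on the probe set. The brightest had 3015, 1873 and 838 in restimulated cells, 3949, 3034 and 2516 in pretreated cells, 2809, 1679 and 2153 in LPS-once cells and 2717, 3133 and 2278 in untreated cells. These groups overlapped, and the first response was -0.31 ± 0.40 (adjusted p = 0.58). The dimmest of its 3 probe sets had 501, 318 and 93.0 in restimulated cells, 263, 298 and 183 in pretreated cells, 1482, 659 and 874 in LPS-once cells and 284, 307 and 294 in untreated cells. There all LPS-once arrays were above all others, with a first response of 1.63 ± 0.50 (adjusted p = 0.0376 over all 45037 probe sets) and a level of -1.86 in restimulated against LPS-once cells (adjusted p = 0.0445). The middle probe set, at -0.24 ± 0.43, followed the brightest one. Which transcripts each probe set reads was not tested.

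**Figure D2:**
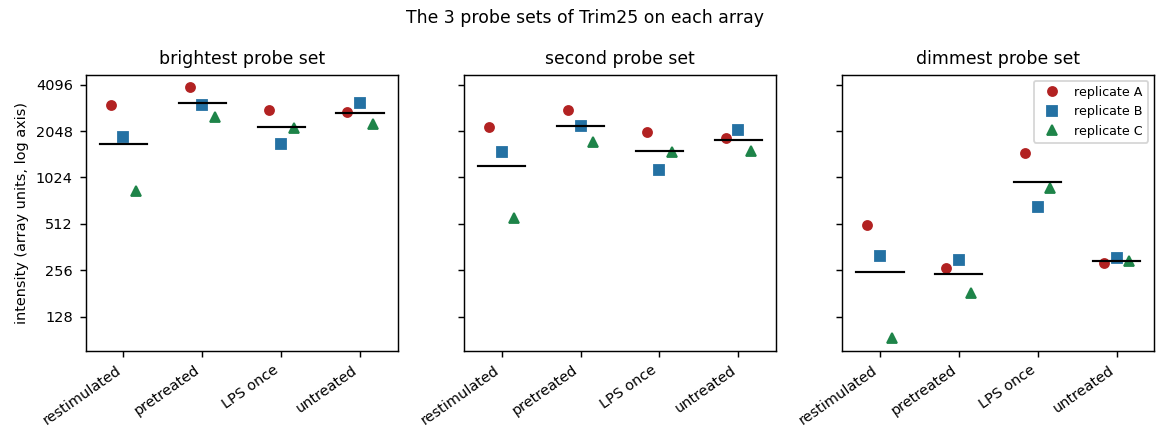
Intensity (log axis) of the 3 probe sets of Trim25 on each array, by group, with points marked by replicate letter and a bar at the mean of the log2(intensity + 16) values, turned back to intensity. In the right panel the 3 LPS-once arrays, at 659 to 1482, are above all arrays of the other groups, while in the left and middle panels the groups overlap.

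On the lower side, Trim8, which in human cells promotes NF-kappaB activation, had 617, 531 and 404 in restimulated cells, 595, 696 and 688 in pretreated cells, 294, 269 and 203 in LPS-once cells and 582, 687 and 593 in untreated cells. All LPS-once arrays were below every other array. The first response was -1.24 ± 0.17 (adjusted p = 0.000419), and after quantile normalization it was -0.95, under 2-fold. The next brightest Trim8 probe set gave -0.97 ± 0.29 (adjusted p = 0.036 over all probe sets), also under 2-fold. The dimmest, with no group mean above 26.9, gave 0.19 ± 0.05. Of the 7 measured members linked to Toll-like receptor and NF-kappaB signalling, Trim13 was called higher and Trim8 lower. Trim39 (-0.85 ± 0.17, adjusted p = 0.00372) and Trim23 (-0.60 ± 0.20, adjusted p = 0.0474) passed the p but not the fold, and Trim59 and Trim27 did not pass either. Trim62 was on the higher side with its brightest probe set (0.42 ± 0.08, adjusted p = 0.00363, under 2-fold), but a dimmer one was called lower (-1.24 ± 0.16, adjusted p = 0.000476 over all probe sets).

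Trim24 is a transcriptional cofactor of nuclear receptors and the only gene called among the 4 measured of the chromatin-binding TIF1 group. It had 140, 153 and 61.8 in restimulated cells, 200, 152 and 179 in pretreated cells, 56.5, 99.7 and 48.9 in LPS-once cells and 227, 242 and 223 in untreated cells. Untreated arrays were above all others, and LPS-once arrays were below all pretreated arrays. The first response was -1.60 ± 0.29 (adjusted p = 0.00243), and it was not called with the mean of its 3 probe sets (-0.71) or without the 4 A arrays (-1.52, adjusted p = 0.0558). Trim28, the corepressor of KRAB zinc finger proteins, was at -0.56 ± 0.16 (adjusted p = 0.023, under 2-fold) and Trim33, which acts with Smad4, at -0.31 ± 0.15 (adjusted p = 0.146).

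Trim65, which in human cells adds ubiquitin to the RNA sensor MDA5 (Ifih1), had 71.8, 88.6 and 46.3 in restimulated cells, 103, 85.7 and 127 in pretreated cells, 36.6, 26.6 and 31.0 in LPS-once cells and 136, 162 and 158 in untreated cells. LPS-once arrays were the lowest and untreated arrays the highest, with no overlap between them and the other groups. The first response was -1.83 ± 0.19 (adjusted p = 9.48e-05). Trim47, its direct neighbour among protein-coding genes on chromosome 11, had 225, 208 and 149 in restimulated cells, 387, 277 and 373 in pretreated cells, 80.4, 223 and 96.4 in LPS-once cells and 444, 561 and 558 in untreated cells. The LPS-once B array lay within the restimulated range, and the other 2 were the lowest of all. The first response of Trim47 was -1.96 ± 0.31 (adjusted p = 0.00102).

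Trim41, a RING ligase that binds protein kinase C in human cells, had 806, 733 and 456 in restimulated cells, 1387, 788 and 1060 in pretreated cells, 346, 347 and 313 in LPS-once cells and 927, 849 and 908 in untreated cells. Again the LPS-once arrays were the lowest of all. The first response was -1.38 ± 0.23 (adjusted p = 0.00128), and a second probe set gave -1.43 ± 0.40. Smaller differences with an adjusted p under 0.05 were seen for Trim11 (-0.92 ± 0.21), Trim32 (-0.80 ± 0.16), Trim44 (-0.74 ± 0.11) and Trim16 (-0.71 ± 0.14). The other probe set of Trim16 was called lower, at -1.20 ± 0.16 (adjusted p = 0.000546 over all probe sets). The other Trim44 probe sets, with no group mean above 78.44, went the other way, at 0.29 ± 0.21 and 0.12 ± 0.10, and were not called. Trim3 (0.39 ± 0.20), Trim35 (0.14 ± 0.27) and Trim37 (-0.29 ± 0.14) did not pass. Of the 4 other Trim37 probe sets, 1 was called lower (-1.02 ± 0.28, adjusted p = 0.0246 over all probe sets). The others had -0.99 ± 0.26 (adjusted p = 0.0192) and -0.66 ± 0.08 (adjusted p = 0.000436), both under 2-fold, and -0.18 ± 0.11 (adjusted p = 0.247).

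**Figure D3:**
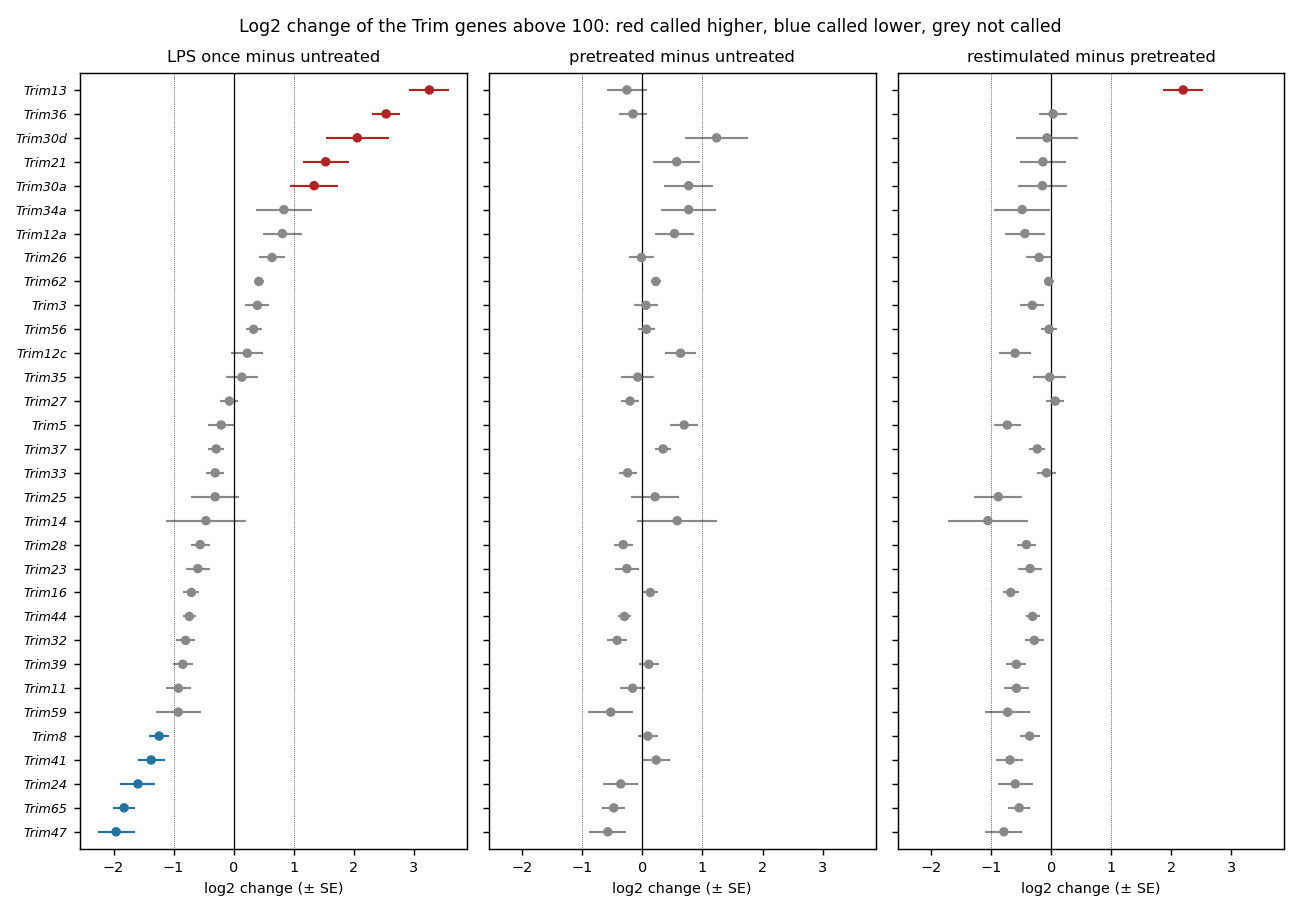
Log2 change with its standard error for the 32 Trim genes above 100, in the order of their first response, in 3 panels: LPS once minus untreated, pretreated minus untreated and restimulated minus pretreated. Red points were called higher and blue points lower, dotted lines mark 2-fold, and the left panel spans 3.26 for Trim13 to -1.96 for Trim47, while the right panel has Trim13 alone past the test at 2.20.

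The pretreatment effect compared pretreated with untreated cells, neither of which received LPS after the rest. None of the 58 Trim genes was called in limma, against 0.291% of all genes called higher and 0.308% called lower. At an unadjusted p under 0.05, 6 were higher (5.8% of all genes were) and 4 lower (6.23% of all genes were). This comparison and the first response share the untreated arrays. The differences furthest from 0 belonged to interferon-linked members: Trim30d had 1.24 ± 0.52 (adjusted p = 0.379), Trim34a 0.77 ± 0.46 (adjusted p = 0.598) and Trim30a 0.77 ± 0.40 (adjusted p = 0.519). Trim34a, an antiviral SPRY member, had 1468, 671 and 679 in pretreated cells and 501, 560 and 464 in untreated cells, so the groups did not overlap, but the A array lay far above the others. The pretreated arrays of 12 Trim genes lay above all untreated arrays (15.7% of all genes did) and those of 10 lay below (11.5% of all genes did). The interferon-linked members had a median of 0.57, with 11 of 12 above 0 and none called.

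The second LPS response compared restimulated with pretreated cells. Here Trim13 was the only Trim gene called higher (1 of 58, 1.72%, against 0.665% of all genes), and no Trim gene was called lower (1.29% of all genes were). At an unadjusted p under 0.05 there were 2 higher (4.52% of all genes were) and 12 lower (15.3% of all genes were). Trim13 had a log2 change of 2.20 ± 0.33 (adjusted p = 0.0105), and it was still called without the restimulated C array. The call was lost without the pretreated C array (adjusted p = 0.0563), without the 4 A arrays (adjusted p = 0.116) and in a fit of the 2 compared groups alone (adjusted p = 0.144). Trim16, a member without a RING domain, had 82.7, 101 and 97.3 in restimulated cells and 187, 163 and 130 in pretreated cells, a change of -0.67 ± 0.14 (adjusted p = 0.0269) that stayed under 2-fold; without the restimulated C array it was -0.70 (adjusted p = 0.064). Restimulated arrays of 3 Trim genes lay above all pretreated arrays (7.99% of all genes did) and those of 5 lay below (15.1% of all genes did). Without the restimulated C array these counts were 3 (14.4% of all genes) and 7 (17.2% of all genes).

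Trim14 and Trim25 had the next largest differences in the second response, -1.06 ± 0.66 (adjusted p = 0.401) and -0.88 ± 0.40 (adjusted p = 0.257). Trim14 had 978, 451 and 206 in restimulated cells, 1417, 715 and 868 in pretreated cells, 1195, 184 and 422 in LPS-once cells and 751, 528 and 649 in untreated cells. Its groups overlapped, and the restimulated C array was the lowest of its group for both genes. Without it the changes were -0.52 for Trim14 and -0.39 for Trim25. Over the 32 Trim genes above 100 the median was -0.36, against -0.22 over all genes above 100, and 3 of the 32 were above 0. Without the restimulated C array 10 were above 0, and the medians were -0.20 and -0.07. After quantile normalization 11 of the 32 were above 0 and the median was -0.13, against -0.03 over all genes above 100, so the sign of small second responses depended on the scaling. Trim21, Trim26, Trim30d, Trim33, Trim35, Trim37, Trim56 and Trim62 changed sign and none of them was called.

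The difference between the second and first responses (the interaction) asked whether a pretreated cell responded as an untreated cell did. Trim36 was called with a smaller second response (1 of 58, 1.72%, against 1.44% of all genes called lower), and Trim65 with a second response that was less negative (1 of 58, 1.72%, against 1.23% of all genes called higher). For Trim36 the second response was 0.03 ± 0.23, against a first of 2.54 ± 0.23, a difference of -2.51 ± 0.33 (adjusted p = 0.00506). Without the 4 A arrays it was -2.59 (adjusted p = 0.0813). For Trim65 the second response was -0.53 ± 0.19, against a first of -1.83 ± 0.19, a difference of 1.29 ± 0.27 (adjusted p = 0.03). The Trim65 call was lost in 10 of 21 alternatives, among them each fit without 1 untreated array, with adjusted p-values of up to 0.213. Without the restimulated C array, 3 of 58 Trim genes were called higher (Trim65, Trim24 and Trim8) and Trim36 lower. Over all 18193 genes 480 were then called higher and 255 lower, against 223 and 262 with that array.

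The interaction of Trim13 was -1.06 ± 0.47 (adjusted p = 0.281). All 12 interferon-linked members had an interaction below 0, with a median of -0.83, against -0.02 over all genes, and none was called. Without the restimulated C array 1 of the 12 was above 0, the median was -0.59, and again none was called. Trim30d had -2.13 ± 0.74 (adjusted p = 0.166), which was called in the fit with the letters as blocks (replicate block). Trim21 had -1.67 ± 0.55 (adjusted p = 0.141) and Trim30a -1.49 ± 0.57 (adjusted p = 0.209). Without the restimulated C array and without the block, Trim30d had -1.71, Trim21 -1.29 and Trim30a -1.13, none of them called. When restimulated C was left out of the fit with the replicate block, Trim30d (-1.85, adjusted p = 0.033), Trim21 (-1.32, adjusted p = 0.0221) and Trim13 (-1.13, adjusted p = 0.0417) were called lower. In Trim30d, Trim21 and Trim30a all pretreated arrays lay above all untreated ones, and the restimulated and pretreated arrays overlapped.

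The level after LPS compared restimulated with LPS-once cells. Trim36 and Trim13 were lower in restimulated cells (2 of 58, 3.45%, against 3.18% of all genes called lower), and no Trim gene was called higher (2.48% of all genes were). Unadjusted p-values under 0.05 numbered 5 higher (13.3% of all genes were) and 8 lower (13.5% of all genes were). Trim36 differed by -2.67 ± 0.23 (adjusted p = 0.000149) and Trim13 by -1.32 ± 0.33 (adjusted p = 0.0251). The Trim13 call was lost without the restimulated A or B array or the LPS-once B or C array, with adjusted p-values of up to 0.0871. Trim8 (0.97 ± 0.17, adjusted p = 0.00427), Trim41 (0.92 ± 0.23, adjusted p = 0.0226) and Trim65 (0.81 ± 0.19, adjusted p = 0.0175) were above, and Trim26 (-0.86 ± 0.21, adjusted p = 0.0229) below, by less than 2-fold. The next brightest Trim8 probe set was called higher (1.06 ± 0.29, adjusted p = 0.0494 over all probe sets), and the dimmest had -0.05 ± 0.05. The other probe sets of Trim41 (0.57 ± 0.40) and Trim26 (-0.29 ± 0.18) were not called. Without the restimulated C array, Trim8, Trim41 and Trim65 were called higher, so that 5 of 58 Trim genes were called. Over all 18193 genes 733 were then called higher and 434 lower, against 451 and 578 with that array. Trim21 had -1.10 ± 0.39 (adjusted p = 0.091) and was called lower with the replicate block. In the fit without the block, leaving out the restimulated C array gave -0.72 for Trim21 (adjusted p = 0.209). The arrays did not overlap for 6 Trim genes that were higher (11.7% of all genes were) and 8 that were lower (14.1% of all genes were), and without the restimulated C array for 13 (23% of all genes) and 13 (20.3% of all genes).

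Replicate letter A stood out for the interferon-linked members. Of the 11 above 100 (Trim5, Trim12a, Trim12c, Trim14, Trim21, Trim25, Trim26, Trim30a, Trim30d, Trim34a and Trim56), the A array was the highest of its group for 11 in restimulated cells, 11 in pretreated cells, 10 in LPS-once cells and 2 in untreated cells. The exception among LPS-once cells was Trim56. Their median log2 excess of A over the mean of B and C was 1.25 in restimulated, 0.57 in pretreated, 0.79 in LPS-once and -0.02 in untreated cells. For the other 21 Trim genes above 100 the A array was highest for 6, 6, 5 and 2 genes in the same order of groups, with medians of 0.12, -0.04, -0.14 and -0.13.

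Other interferon-induced genes, Ifit1, Mx1, Rsad2, Oasl1 and Irf7, were likewise highest on the A array in the 3 groups that had seen LPS. Mx1, an antiviral GTPase, had 2723, 491 and 264 in restimulated cells, 1170, 420.0 and 363 in pretreated cells, 5092, 1069 and 2185 in LPS-once cells and 52.5, 74.3 and 44.2 in untreated cells. In untreated cells the B array was the highest. Ifnb1, the gene of interferon beta itself, stayed between 16.2 and 75.3 on all arrays and was highest on the C array in restimulated and in LPS-once cells. What set the A arrays apart was not tested. Without all 4 A arrays, Trim13, Trim36, Trim30d, Trim21 and Trim30a were still called higher in the first response, and Trim24 was no longer called lower.

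**Figure D4:**
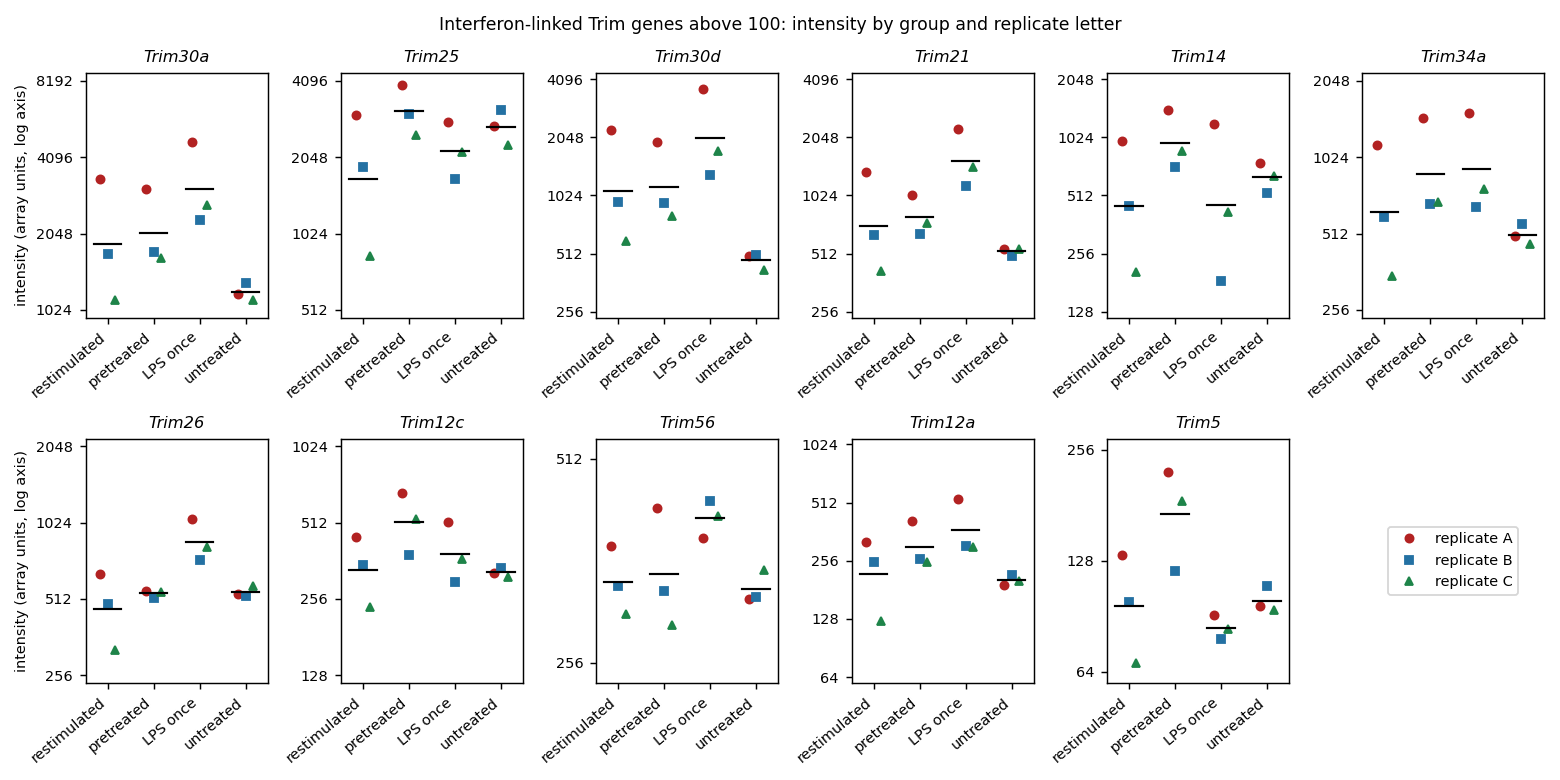
Intensity (log axis) of the 11 interferon-linked Trim genes above 100 on each array, by group, with points marked by replicate letter and a bar at the mean of the log2(intensity + 16) values, turned back to intensity. The red circles of replicate A lie at the top of the restimulated and pretreated groups in all 11 panels and of the LPS-once group in 10, but of the untreated group in 2.

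Promoter windows were read for all Trim genes that had one. RefSeq windows of 300 bases (250 before and 50 after a transcript start, build GRCm38.p6) matched 47 of the 58 genes, with 61 windows. They were searched on both strands for GAAA and a second GAAA with any 2 bases between them, the core of an interferon-stimulated response element (ISRE). A match stood in 9 of 47 Trim genes, against 3.993% of 27025 genes with a window, and in 10 of 61 Trim windows, against 3.443% of 32851 windows. Of the 11 interferon-linked members with a window 8 held it, and of the 36 other Trim genes 1 did, Trim2, which stayed below 100. The stretches of 30 bases around the match are shown for the interferon-linked members with a match, since several on chromosome 7 are the same or nearly so; capitals mark the matched letters, which on the strand of the gene read as given or as their reverse complement.
Trim30a (chr7:104465210-104465239, minus strand): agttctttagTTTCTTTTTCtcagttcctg
Trim30a, other start (chr7:104446104-104446133, minus strand): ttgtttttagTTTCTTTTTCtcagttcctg
Trim30d (chr7:104507871-104507900, minus strand): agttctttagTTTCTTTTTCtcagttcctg
Trim5 (chr7:104288136-104288165, minus strand): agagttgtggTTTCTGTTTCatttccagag
Trim12a (chr7:104315466-104315495, minus strand): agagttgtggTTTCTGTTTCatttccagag
Trim12c (chr7:104353359-104353388, minus strand): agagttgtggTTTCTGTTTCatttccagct
Trim34a (chr7:104244457-104244486, plus strand): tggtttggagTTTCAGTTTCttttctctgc
Trim21 (chr7:102565447-102565476, minus strand): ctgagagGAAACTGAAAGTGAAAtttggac
Trim26 (chr17:36836979-36837008, plus strand): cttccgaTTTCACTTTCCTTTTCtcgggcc

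The stretch of Trim30a at its first start is the same as that of Trim30d, and the stretch of Trim5 is the same as that of Trim12a. Trim21 and Trim26 each hold 2 overlapping matches, drawn as 1 run of capitals. Measured from the start of transcription, the match ended 27 bases upstream in Trim30a, 32 in Trim30d, 40 in Trim5, 20 in Trim12c and 145 in Trim26, and it began 14 bases downstream in Trim21, 11 in Trim12a and Trim34a, and 3 at the other start of Trim30a. The same windows held the letters TTCNNNGAA, of the gamma-activated site type, in 4 of 47 Trim genes (9.554% of all genes) and GGGA and CC with any 4 bases between them, of the kappaB type, in 10 of 47 (22.923% of all genes), and no ISRE match overlapped either. A match is a description of letters and not of binding, and Trim5 and Trim12a, with the same stretch, had first responses of -0.21 ± 0.23 and 0.81 ± 0.33.

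**Figure D5:**
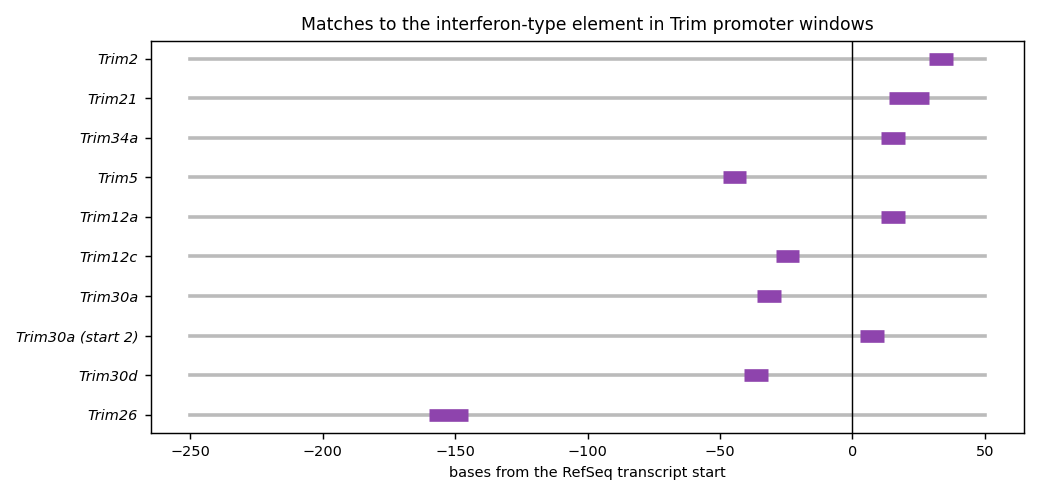
Position of the matches to the interferon-type element in the promoter windows of the 9 Trim genes that held one, in bases from the RefSeq transcript start (0), with the grey line showing the window of 250 bases before and 50 after. The matches of Trim30a (first start), Trim30d, Trim5 and Trim12c end 20 to 40 bases upstream of the start, and those of Trim12a, Trim21, Trim34a, Trim2 and the other start of Trim30a lie within 50 bases downstream of it.

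Of 25 measured partners and substrates of Trim ligases, 4 rose (3.9% of all genes did) and 4 fell (9.1% of all genes did) in the first response, and 17 were not called. Their median log2 change was 0.12, against 0.04 over all genes. Ifih1, the RNA sensor MDA5, had 3.27 ± 0.37 (adjusted p = 0.000168) and Ddx58, the RNA sensor RIG-I and a substrate of Trim25, had 1.80 ± 0.48 (adjusted p = 0.0163). Their shared adaptor Mavs had -1.77 ± 0.34 (adjusted p = 0.00306). Irf8, a macrophage transcription factor that Trim21 ubiquitinates, had -1.84 ± 0.24, and Setdb1, the histone methyltransferase recruited by Trim28, had -1.38 ± 0.26. Tab2, a target of Trim30a, had 0.90 ± 0.16, under 2-fold.

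In pretreated against untreated cells 1 of 25 partners was called, on the higher side (0.291% of all genes were). It was Irf7, the interferon regulatory factor that amplifies interferon production, at 3.74 ± 0.39 (adjusted p = 0.00222). In the second response Irf8 alone was called, lower at -1.21 ± 0.24 (1 of 25, against 1.29% of all genes). That call was lost without the restimulated C array (-1.13, adjusted p = 0.0826). In the interaction Ifih1 alone was called, lower at -3.14 ± 0.53 (adjusted p = 0.0144), and at -2.78 without that array. This was 1 of 25, against 1.44% of all genes. Irf7 was higher in restimulated than in LPS-once cells, by 1.64 ± 0.39 (1 of 25, against 2.48% of all genes). Ifih1 (-2.17 ± 0.37) and Tab2 (-1.20 ± 0.16) were lower (2 of 25, against 3.18% of all genes).

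Of the interferon-signalling and effector genes outside the family, 13 of 20 were called higher in the first response, with a median of 2.38, against 3.9% and 0.04 over all genes. In the pretreatment effect 3 of 20 were called higher (0.291% of all genes were), and in the second response none was (0.665% of all genes were). In the interaction 7 of 20 were lower (1.44% of all genes were), with a median of -2.55, and without the restimulated C array there were also 7, with a median of -2.11. Oasl1 led the first response at 5.18 ± 0.72, and Ifit1 had 4.77 ± 0.61. The interferon-linked Trim genes, by comparison, had 3 of 12 called and a median of 0.49 in the first response; no test set the lists against each other.

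Members of the family that carry another symbol were measured as well. Of 6 such genes, Mefv, which encodes pyrin (Trim20), was called in 4 of the 5 comparisons. It had 2758, 2070.1 and 2920.2 in restimulated cells, 943, 1035 and 1668 in pretreated cells, 2443, 3181 and 2860.0 in LPS-once cells and 577, 400.4 and 407 in untreated cells. Untreated arrays were the lowest, pretreated arrays lay above them without overlap, and both LPS-stimulated groups were the highest. The first response of Mefv was 2.59 ± 0.23 (adjusted p = 4.73e-05), the pretreatment effect 1.34 ± 0.23 (adjusted p = 0.032), the second response 1.11 ± 0.23 (adjusted p = 0.0313) and the interaction -1.48 ± 0.33 (adjusted p = 0.0389). Without the restimulated C array the second response was no longer called (1.01, adjusted p = 0.0961), while the interaction was (-1.57). The A array of Mefv was not the highest of the restimulated, pretreated or LPS-once group. Pml, the nuclear body organiser (Trim19), had 0.68 in the first response and was not called (adjusted p = 0.442).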

How the data were processed

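RNA of 4 groups of 3 cultures was measured on Affymetrix mouse arrays. Per the labels' protocols, RNA was isolated with TriFast and labelled by the manufacturer's standard procedure. The deposited values were linear intensities, 1 per probe set and array; the sources used here do not give the program, background correction or scaling behind them.

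The 45101 probe sets, 64 of them controls, were named from the platform annotation: 34945 had 1 symbol, 932 several and 9160 none here. Entrez identifiers updated the symbols through RefSeq (GRCm38.p6, 34741 matched, no Trim symbol changed). Each gene was represented by its single-symbol probe set with the highest mean log2(value + 16), which gave 18193 genes. The 58 Trim genes had 111 single-symbol probe sets, 27 of the genes had 1, and 15 were represented by a probe set of shared targets. Precision is limited by the number of arrays.

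limma 3.58.1 (R 4.3.3) fitted the 4 group means to all 12 arrays (8 residual and 1.71 prior degrees of freedom). Calls needed a p under 0.05 after Benjamini-Hochberg adjustment over the 18193 genes and at least a 2-fold change. A run of the method on simulated data used independent noise on each array. It held no arrays linked by letter and no dim array, so it does not speak to those features. Trim genes above 100 in a group or called were named, and lists followed textbook roles. Members and lists were chosen with earlier results of these data known. Same-letter arrays deviated together (r of 0.296 to 0.697 over 18 pairs), so the letters pair the samples. For 36 pairs of different letters r was -0.479 to -0.028. Deviations from a group mean sum to 0 within the group, so these negative values are no separate baseline. The reported fit leaves the letters out, so its standard errors and p-values ignore the pairing. The fit with the replicate block is an alternative. Alternatives are given in the closing section. Promoter windows came from RefSeq.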

Additional observations from a re-analysis of the deposited data

Results flagged for a closer look

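The first and second LPS responses differed for Trim36, by the interaction term: its log2 change was 0.03 in pretreated cells given LPS again and 2.54 in cells given LPS once, a difference of -2.51 (adjusted p = 0.00506), not called without the 4 A arrays (adjusted p = 0.0813). They differed for Trim65 as well, with a log2 change of -0.53 in the second and -1.83 in the first response, a difference of 1.29 (adjusted p = 0.03), a call that was lost in 10 of 21 alternatives (adjusted p up to 0.213).

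Probe sets assigned to several genes represented no Trim gene. Among those assigned to Trim genes with a group mean above 100, 2 had all LPS-once arrays above all untreated arrays. The probe set of Gm38525 and Trim30b, given at the end, did not overlap either, but had no group mean above 100. The probe set of Trim34b and Trim34a had 910.0, 428 and 392 in LPS-once cells and 349, 374 and 316 in untreated cells, a log2 change of 0.61 that was not called (adjusted p = 0.426 over all probe sets). That of Trim30d and Trim30a had 2476, 1171 and 1191 in LPS-once cells and 481, 501 and 389 in untreated cells, a change of 1.70 that was called (adjusted p = 0.0481). In both the A array was the highest with LPS.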

How the results depend on the processing

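The first-response calls of Trim13, Trim21, Trim30d, Trim36, Trim41, Trim47 and Trim65 held in all 22 alternatives. Trim24 was no longer called with the mean of all probe sets or without the 4 letter A arrays, and Trim8 with the mean of all probe sets or quantile normalization. Leaving out 1 array at a time, Trim calls numbered 9 to 10 in the first, 0 in the pretreatment, 0 to 1 in the second response, 1 to 4 in the interaction and 1 to 5 in the level after LPS. The second response had 0 calls with only the compared groups or without letter A, where the whole table had 1 and 7. The interaction had 1 with a pseudocount of 64 and 0 without letter A, and the level had 4 with a pseudocount of 1. With the replicate block, calls numbered 10, 0, 1, 3 and 3 in the 5 comparisons, and no Trim call was lost; with the block and without restimulated C, the interaction had 6 and the level 5. Over all genes and alternatives, calls ran from 624 to 914 higher and 1138 to 1908 lower in the first (709 and 1655 as reported), 20 to 118 and 13 to 156 in the pretreatment (53 and 56; 100 and 97 with the block), 1 to 180 and 0 to 463 in the second (121 and 234), 22 to 586 and 106 to 335 in the interaction (223 and 262) and 251 to 761 and 341 to 675 in the level (451 and 578). Quantile normalization moved the higher share of all calls to 44.4% (30% as reported) in the first and 55.2% (34.1%) in the second response. Other probe sets reversed the first response of Trim25 (1.63, adjusted p = 0.0376) and Trim62 (-1.24, adjusted p = 0.000476). The causes were not tested. Leaving out letter A, the block without restimulated C, and each other probe set were alternatives chosen after seeing the data. Genes near background can be read only as not above it.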

Other observations

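Ubiquitin ligases of innate immunity outside the Trim family, all RING ligases except the HECT ligase Itch, were measured on the same arrays. Of 18 such genes, 8 were called higher (3.9% of all genes were) and 1 lower (9.1% of all genes were) in the first response. Peli1, which ubiquitinates Irak kinases, averaged 1489 in restimulated, 1036 in pretreated, 4362 in LPS-once and 715 in untreated cells, and rose by 2.59 ± 0.26 on the log2 scale in the first response (adjusted p = 9.17e-05). Its relative Peli2 averaged 146, 329, 45.5 and 348 in the same groups and had a first response of -2.58 ± 0.22 (adjusted p = 3.56e-05). Siah2 had 1.97 ± 0.23, Birc3 1.70 ± 0.18 and Birc2, both cIAP ligases of the Tnf receptor complex, 1.28 ± 0.20. In the second response 2 of 18 were called higher (0.665% of all genes were), Birc3 (1.17 ± 0.18) and Rnf19b (1.05 ± 0.17). Peli2 (-1.08 ± 0.22) was called lower (1 of 18, against 1.29% of all genes), but not without the restimulated C array (-0.90, adjusted p = 0.0789). The interaction was called lower for Peli1 (-2.06 ± 0.37), Dtx3l (-1.64 ± 0.36) and Birc2 (-1.38 ± 0.28), which was 3 of 18, against 1.44% of all genes. For Peli2 it was called higher (1.50 ± 0.31), 1 of 18, against 1.23% of all genes. After LPS, Peli2 was higher in restimulated than in LPS-once cells (1.39 ± 0.22), 1 of 18, against 2.48% of all genes. Peli1, Siah2, Birc2 and Rnf125 were lower (4 of 18, against 3.18% of all genes), Rnf125 not without the restimulated C array (-0.99, under 2-fold).

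A probe set assigned to Gm38525 and Trim30b had 27.2, 19.7 and 16.9 in restimulated cells, 39.6, 25.4 and 27.2 in pretreated cells, 118, 35.6 and 36.5 in LPS-once cells and 16.1, 23.4 and 17.3 in untreated cells, with the A array the highest in every group that had seen LPS.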
